A study of Homo sapiens with 11 samples.

Results

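The serpins, the kallikreins and the plasminogen activators were followed in RT4 cells, a line from a human bladder papilloma, grown on plastic or on Matrigel. The genes were those whose symbol in the probe table begins with SERPIN, or with KLK and a digit, together with PLAU, PLAUR, PLAT and PLG. This gave 41 genes of 14941 with a probe of their own: 23 serpins, 14 kallikreins and the 4 genes of plasminogen activation. KLK10 and SERPINH1 had a second probe each, making 43 probes, and 1 probe shared between CADM4, ZNF428 and PLAUR was left out. Some further genes of these families, among them KLK9, SERPINA1, SERPINB2 and SERPINB6, had no probe of their own under this rule and were not analysed here.

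RNA was measured on 2 arrays from cells on plastic and 9 arrays from cells on Matrigel, a basement membrane extract of a mouse tumour that the study treats as cancer-remodeled matrix, with 1 array each at 12 h and on days 1, 2, 3, 4, 6, 7, 8 and 9. All groups were untreated cells of 1 line in medium with 10% fetal calf serum, and the Matrigel cells had been on plastic before. The labels do not say that the 2 plastic arrays came from separate cultures, so p-values measure only the spread between arrays. The Matrigel arrays are time points taken here as 1 group, so the small number of arrays is what limits precision. Values are in noise SDs above the zero point, the unit of the deposited table after antilog. In that unit 3 SD is the study's threshold for an expressed gene, and values under it were set to 3 SD for the tests. A fold against a group with an array under 3 SD is written as at least, which holds on the deposited scale alone.

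Serpins share a fold in which an exposed loop acts as bait for a serine protease, which is then trapped in a covalent complex. Some members have lost this activity and carry hormones or help fold collagen. Kallikreins are secreted serine proteases encoded side by side on a single chromosome arm, and several of them cleave one another's precursors. Urokinase (PLAU) and tissue plasminogen activator (PLAT) cut plasminogen (PLG) into plasmin, which degrades fibrin and matrix, and the urokinase receptor (PLAUR) holds urokinase on the cell surface. In the bladder, urokinase is a known product of the epithelium and is found in urine.

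The promoters of PLAUR, KLK2, KLK3 and SERPINB5 are shown because these genes were among those that crossed the 3 SD threshold between plastic and Matrigel arrays. Each is the stretch of 250 bases before the annotated start, from RefSeq on GRCh38.p14, read 5′ to 3′ on the gene's strand. PLAUR lies at chr19:43670170-43670419 on the minus strand, KLK2 at chr19:50873189-50873438, KLK3 at chr19:50854665-50854914 and SERPINB5 at chr18:63476708-63476957, all 3 on the plus strand. Capitals mark matches to the motifs searched.
PLAUR: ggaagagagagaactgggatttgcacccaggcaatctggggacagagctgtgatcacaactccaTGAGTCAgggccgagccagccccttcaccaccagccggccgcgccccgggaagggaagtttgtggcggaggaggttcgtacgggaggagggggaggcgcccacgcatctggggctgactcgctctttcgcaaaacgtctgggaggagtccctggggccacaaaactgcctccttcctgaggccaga
KLK2: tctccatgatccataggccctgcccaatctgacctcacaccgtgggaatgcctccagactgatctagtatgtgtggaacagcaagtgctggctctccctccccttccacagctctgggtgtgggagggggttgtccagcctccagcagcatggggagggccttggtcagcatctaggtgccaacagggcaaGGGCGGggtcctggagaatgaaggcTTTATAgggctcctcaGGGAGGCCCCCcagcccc
KLK3: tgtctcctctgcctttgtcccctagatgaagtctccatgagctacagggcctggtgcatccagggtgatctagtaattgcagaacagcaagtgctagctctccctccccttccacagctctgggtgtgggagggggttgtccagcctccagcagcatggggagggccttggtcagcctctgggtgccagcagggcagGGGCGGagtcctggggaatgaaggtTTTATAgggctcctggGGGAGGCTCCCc
SERPINB5: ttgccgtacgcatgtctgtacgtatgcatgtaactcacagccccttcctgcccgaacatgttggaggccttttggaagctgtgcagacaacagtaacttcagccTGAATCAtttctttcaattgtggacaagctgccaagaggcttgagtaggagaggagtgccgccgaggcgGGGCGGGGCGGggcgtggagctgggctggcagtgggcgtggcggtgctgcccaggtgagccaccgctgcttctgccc

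Both strands were searched for the AP-1 motif TGANTCA, the GC box GGGCGG, the TATA box TATAAA, the cyclic AMP response element TGACGTCA, and the NF-κB and androgen response elements, the last 2 named only. The PLAUR promoter held an AP-1 match from -186 to -180 before the start, and the SERPINB5 promoter held one from -146 to -140 beside a pair of GC boxes that share a base. The KLK2 and KLK3 promoters each held a GC box, a TATA box and overlapping NF-κB matches, and were identical at 79.15% of 259 aligned positions. The AP-1 motif was present in 7 of the 32 members with a promoter in the table (PLAUR, SERPINB5, SERPINB7, SERPINB8, SERPINB12, SERPINB13 and SERPINI2, counting any annotated start), and in 6.57% of 35116 promoters of the same length. The GC box was present in 14 of the 32 and in 42.6% of all promoters, the TATA box in 9 and 10.7%, and NF-κB in 7 and 9.96%. The 32 members had 49 starts and each counted if any start matched, while the percentages are over single promoters. These shares are therefore not directly comparable. The cyclic AMP and androgen response elements matched none of the 32, and 1.65% and 0.0456% of all promoters. The search took only exact matches to a fixed pattern, so no match does not show that a promoter, such as that of KLK2 or KLK3, lacks the element. A match is a description of the letters and not a measured binding site.

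Signal over the threshold was common and not particular to genes that bladder cells use. Olfactory and taste receptor genes, which bladder cells are not known to use, were above 3 SD on all 11 arrays in 72.9% of 59 genes, against 68.3% of the 41 members and 76.9% of all genes. Of the urothelial and epithelial markers 14 of 19 were above 3 SD on all arrays, with KRT7 and KRT19 between 162 and 527 SD, but UPK1B, KRT13 and KRT20 were under 3 SD on most Matrigel arrays. Markers of hepatocytes (4 of 7), leukocytes (5 of 6), fibroblasts (5 of 7) and endothelial cells (3 of 5) were above it on all arrays as well. The summed hepatocyte markers were 76.0 to 80.5 SD on plastic and 100.2 to 155.8 on Matrigel, and the summed leukocyte markers 145.4 to 147.3 and 158.1 to 195.1. The summed olfactory and taste receptors were 1558 to 1608 SD on plastic and 1097 to 1293 on Matrigel, and their part in the results on the members was not tested. The scaling of the deposited values also differed between arrays along with the substrate. The raw intensity that corresponds to 3 SD was 13.3 and 9.64 on the plastic arrays and 52.3 to 136.0 on the Matrigel arrays. The mode of the low peak of raw intensities lay at 28 and 29.5 on the plastic arrays, above the zero points of 3.69 and 1.58 from which the deposited values are counted, so a deposited value over 3 SD on plastic can lie within the low peak. On both plastic arrays 20 of the 41 members had a raw intensity under 3 noise SD over that mode, as did 46.4% of all probes. Array scaling and growth substrate cannot be told apart, nor, in bulk RNA, can fewer cells of a type and less RNA per cell.

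Of the 39 members tested, 10 were higher on Matrigel, 6 were lower and 23 did not pass at an adjusted p of 0.05 by limma. This is 41.0% called, and 45.2% of all 21480 probes tested were called in the same comparison, 22.8% higher and 22.4% lower. The share among the members was thus near that of the array as a whole. Higher were KLK1, KLK2, KLK8, KLK12, KLK14, SERPINA6, SERPINA7, SERPINB1, SERPINF1 and SERPINI1. Lower were KLK3, KLK4, SERPINB5, SERPINB7, SERPINB11 and SERPINH1. With values rebuilt from raw intensity and regressed there were 10 members higher and 0 lower, beside 5078 and 1935 of all probes. Without the regression there were 27 members higher and 0 lower, beside 15896 and 55 of all probes. The median of all probes then shifted by 1.27. Without plastic replicate 1 there were 5 higher and 3 lower, and without plastic replicate 2 there were 4 higher and 2 lower. Of the 10 called higher, 7 were under 3 raw noise SD over the low-peak mode on both plastic arrays. These were KLK1, KLK2, KLK12, KLK14, SERPINA7, SERPINB1 and SERPINF1. The size of their change depends on where zero is set. A fold for them is given below only as a lower bound, and the log2 changes of their deposited values hold on that scale alone. Of the 6 called lower, 2 (KLK3 and SERPINB5) were under 3 raw noise SD over that mode on both plastic arrays. The median log2 change was 0.10 over the members and 0.06 over all probes tested. All 9 Matrigel arrays lay above both plastic arrays for 9 members, which held for 20.8% of all probes, and below both for 6 members, which held for 24.4%. Both plastic arrays were at the lowest value of the table for 7 members (KLK2, KLK7, KLK14, PLAUR, SERPINA4, SERPINB13 and SERPINF1), which held for 8.8% of all probes. SERPINA4, the kallikrein inhibitor kallistatin, and SERPINB8, an intracellular inhibitor, stayed under 3 SD on all 11 arrays and were not tested.

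**Figure D1:**
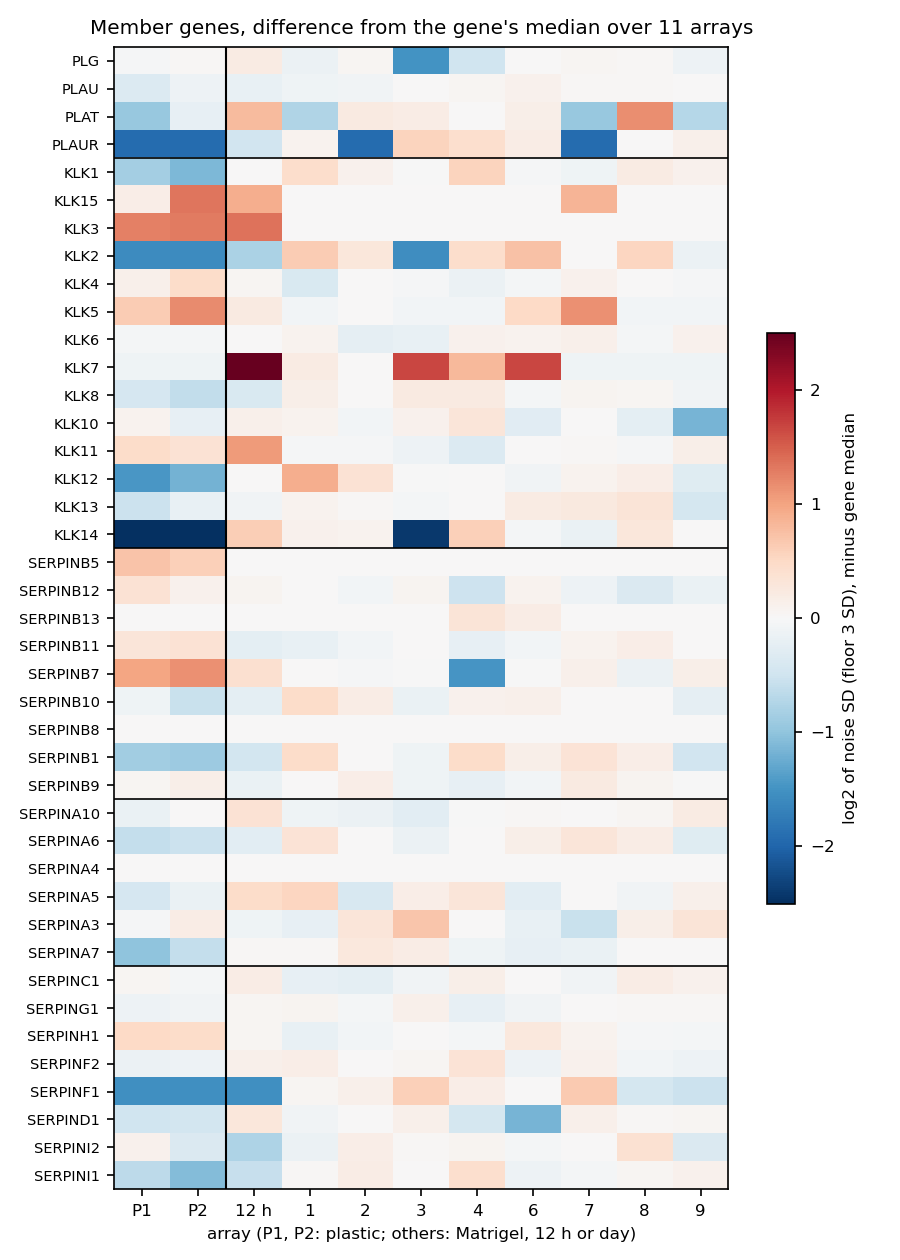
Log2 of the noise SD (floor 3 SD) minus the gene's median over 11 arrays, for the 41 members (vertical) on each array (horizontal; P1 and P2 are plastic, the others Matrigel at 12 h or by day), with colours ending at ±2.5 and lines between the plasminogen genes, KLK, SERPINB, SERPINA and the other serpins. KLK14, KLK2 and SERPINF1 are blue on both plastic arrays, KLK3 is red on plastic and at 12 h, and most other genes vary little.

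**Figure D2:**
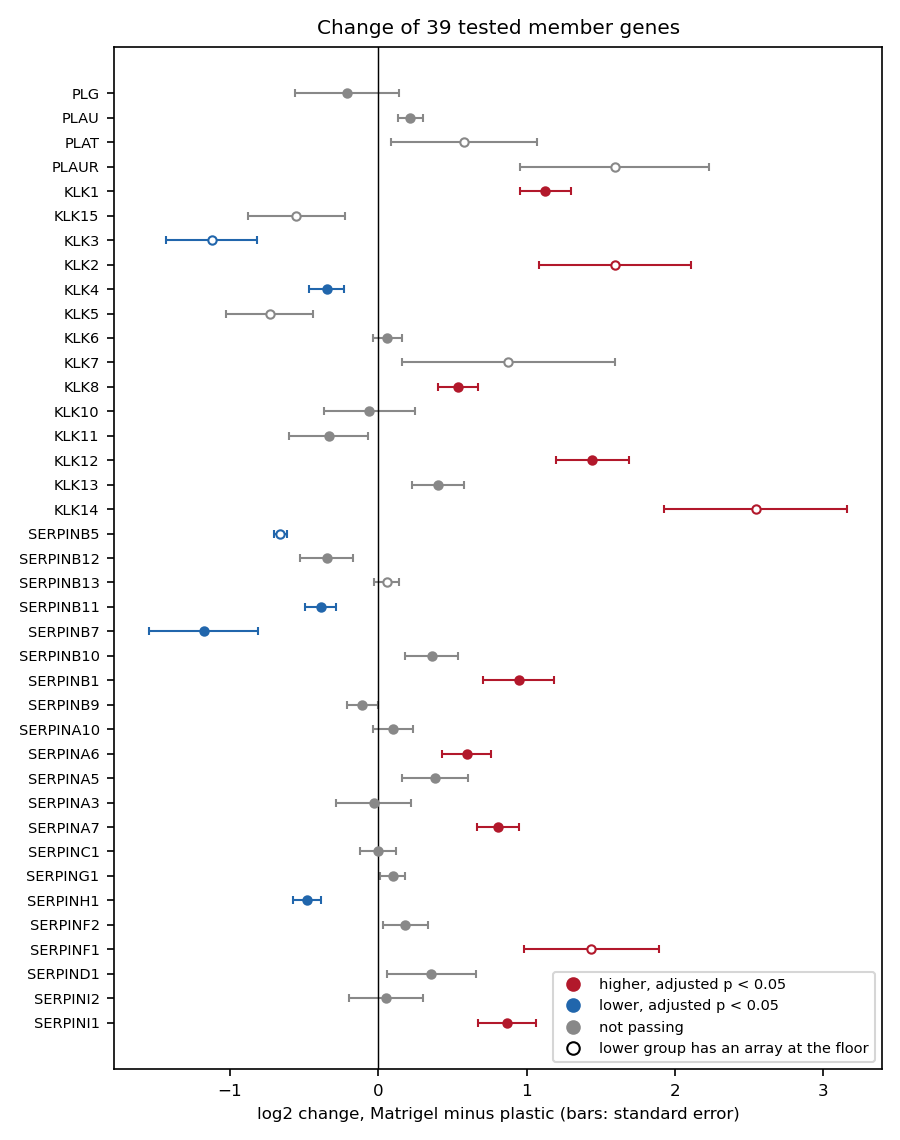
Log2 change, Matrigel minus plastic, of the 39 members tested, with the standard error as bars (2 plastic and 9 Matrigel arrays), red for higher, blue for lower and gray for those that did not pass, and open points where the lower group has an array at the floor. The 10 genes called higher run from 0.54 to 2.55 and the 6 called lower from -1.18 to -0.35.

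The urokinase receptor was detected on Matrigel arrays alone, but not on all of them. PLAUR was at the lowest value of the table on both plastic arrays. On Matrigel it was 8.16 SD at 12 h, 12.2 on day 1, 16.7 on day 3, 15.2 on day 4, 12.9 on day 6, 11.4 on day 8 and 12.5 on day 9, and under 3 SD on days 2 and 7. It was therefore above 3 SD on 7 of 9 Matrigel arrays and 0 of 2 plastic arrays, and the groups overlapped on days 2 and 7. The raw intensities were -1.5 and -18.5 on plastic, -7.13 and 34.1 on days 2 and 7, and 106 to 379 on the 7 other days. The log2 change of 1.60 ± 0.64 (SE) did not pass by limma (adjusted p = 0.0609). Without the day 2 array the change was 1.80 with an adjusted p of 0.020 by limma, and without the day 7 array it was 1.80 with an adjusted p of 0.019. These were the Matrigel arrays on which PLAUR was under 3 SD. Leaving out any other Matrigel array did not bring it past the threshold, nor did rebuilt values, quantile normalization or array weights. With values rebuilt without the regression the change was 0.87, and -0.40 relative to the shift of all probes.

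Its ligand urokinase was among the steadiest members. PLAU was 31.1 and 36.3 SD on plastic and 34.9, 39.6 and 42.4 SD (lowest, median, highest) on Matrigel, so that the 12 h array lay between the plastic arrays and the 8 later ones above them. The log2 change was 0.22 ± 0.08 (SE) and did not pass by limma (adjusted p = 0.0559). It passed with rebuilt and regressed values (0.26), with quantile normalization (0.29) and without plastic replicate 2 (0.33). Over all 11 arrays its relative SD was 8.56%, after SERPING1 with 6.54% and KLK6 with 8.27%, the 3 lowest among the 28 members above 5 SD on every array.

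Tissue plasminogen activator and plasminogen showed no separation of the groups. PLAT was 2.65 and 5.01 SD on plastic and 2.89, 6.33 and 12.8 SD on Matrigel, with a log2 change of 0.58 ± 0.49 (SE) that did not pass (adjusted p = 0.362, limma). PLG, the precursor of plasmin and a known liver product, was 34.5 and 35.7 SD on plastic and 12.5, 35.2 and 40.6 SD on Matrigel, where day 3 was the low array. None of the 4 genes of plasminogen activation passed the test.

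Among the kallikreins, 5 of 14 were higher on Matrigel, 2 were lower and 7 did not pass, 50% called beside 45.2% of all probes. Following the chromosome from KLK1 to KLK14, the calls did not run in a block: KLK1 was higher, KLK15 did not pass, KLK3 was lower, KLK2 was higher, KLK4 was lower, KLK5, KLK6 and KLK7 did not pass, KLK8 was higher, KLK10 and KLK11 did not pass, KLK12 was higher, KLK13 did not pass, and KLK14 was higher. The neighbours KLK3 and KLK2 were called in opposite directions. Since these genes are near copies of one another, signal of one on the other's probe cannot be told apart here.

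KLK14, a trypsin-like enzyme that activates other kallikreins in skin, was at the lowest value of the table on both plastic arrays and was 28.9 SD at 12 h, 20.3 on day 1, 20.1 on day 2, 3.53 on day 3, 28.5 on day 4, 18.1 on day 6, 16.7 on day 7, 22.9 on day 8 and 18.8 on day 9. The groups did not overlap, and day 3 lay far under the other Matrigel arrays. On the deposited scale KLK14 was at least 5.84-fold higher on Matrigel (log2 change 2.55 ± 0.62 SE, adjusted p = 0.00597 by limma). With values rebuilt and regressed, the log2 change was 1.54 and passed. Without plastic replicate 1 the adjusted p was 0.062 and without plastic replicate 2 it was 0.069, at the same change. It was the 1 member off on plastic (group mean of log10 values under 0) and on on Matrigel (over 1), as were 3.97% of all probes. No member was on on plastic and off on Matrigel, as were 0.41% of all probes.

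KLK2, the prostate enzyme that activates the precursor of prostate-specific antigen, was also at the lowest value on both plastic arrays. On Matrigel the lowest value was 3.05 SD (day 3), the median 10.9 SD and the highest 14.9 SD (day 6), and all 9 arrays lay above both plastic arrays. On that scale KLK2 was at least 3.02-fold higher (log2 change 1.60 ± 0.51 SE, adjusted p = 0.0248 by limma), with adjusted p-values of 0.14 and 0.15 without plastic replicates 1 and 2, and 0.14 with quantile normalization. With values rebuilt and regressed it passed at a log2 change of 0.87. The call was also lost with a floor of 5 SD, with array weights and in both settings without the regression. With values rebuilt without the regression the log2 change was 0.79, and -0.48 relative to the shift of all probes. Under the filter for 3 SD on all 11 arrays KLK2 was not tested.

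KLK1, tissue kallikrein, which releases kinins, was called higher. It was 14.3 and 11.7 SD on plastic and 23.8, 27.4 and 37.8 SD on Matrigel, with no overlap (log2 1.13 ± 0.17 SE, adjusted p = 0.00031 by limma). Its raw intensities of 92.3 and 60.1 on plastic were 1.62 and 0.67 noise SD over the low-peak mode, and 247 to 611 on Matrigel. KLK12 was 9.41 and 11.5 SD on plastic and 21.0, 26.0 and 48.4 SD on Matrigel, again with no overlap (log2 1.44 ± 0.24 SE, adjusted p = 0.000615 by limma), with raw intensities of 52.5 and 58.6 on plastic, 0.62 and 0.64 noise SD over the mode, and 250 to 759 on Matrigel. With values rebuilt and regressed the log2 change was 0.80 for KLK1 and 1.06 for KLK12, and both passed. KLK8, neuropsin, rose by less, from 28.6 and 25.2 SD to 29.5, 39.7 and 44.7 SD (log2 0.54 ± 0.14 SE, adjusted p = 0.00744 by limma). KLK1 and KLK12 passed without either plastic array, and KLK8 had an adjusted p of 0.11 without plastic replicate 2.

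KLK3, prostate-specific antigen, was called lower on Matrigel, but its 12 h array stood with plastic. It was 7.18 and 7.35 SD on plastic, 7.73 SD at 12 h and under 3 SD on all 8 later arrays. The log2 change of the deposited values was -1.12 ± 0.31 (SE, adjusted p = 0.0111 by limma), and the adjusted p was 0.088 and 0.10 without plastic replicates 1 and 2. Its raw intensity was 36.9 and 31.3 on plastic, 0.22 and 0.04 noise SD over the low-peak mode, 102 at 12 h and 47.3 to 93.0 later, above both plastic arrays throughout. After values were rebuilt from raw intensity and regressed, the log2 change was -0.13 and did not pass. KLK4, an enzyme of prostate and developing enamel, was 46.5 and 58.8 SD on plastic and 32.8, 41.6 and 45.7 SD on Matrigel (log2 -0.35 ± 0.12 SE, adjusted p = 0.0310 by limma), and lost the call with values rebuilt and regressed (-0.04), with quantile normalization (-0.24), with array weights and without plastic replicate 2. Without the regression it was 0.58, and -0.69 relative to the shift of all probes.

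**Figure D3:**
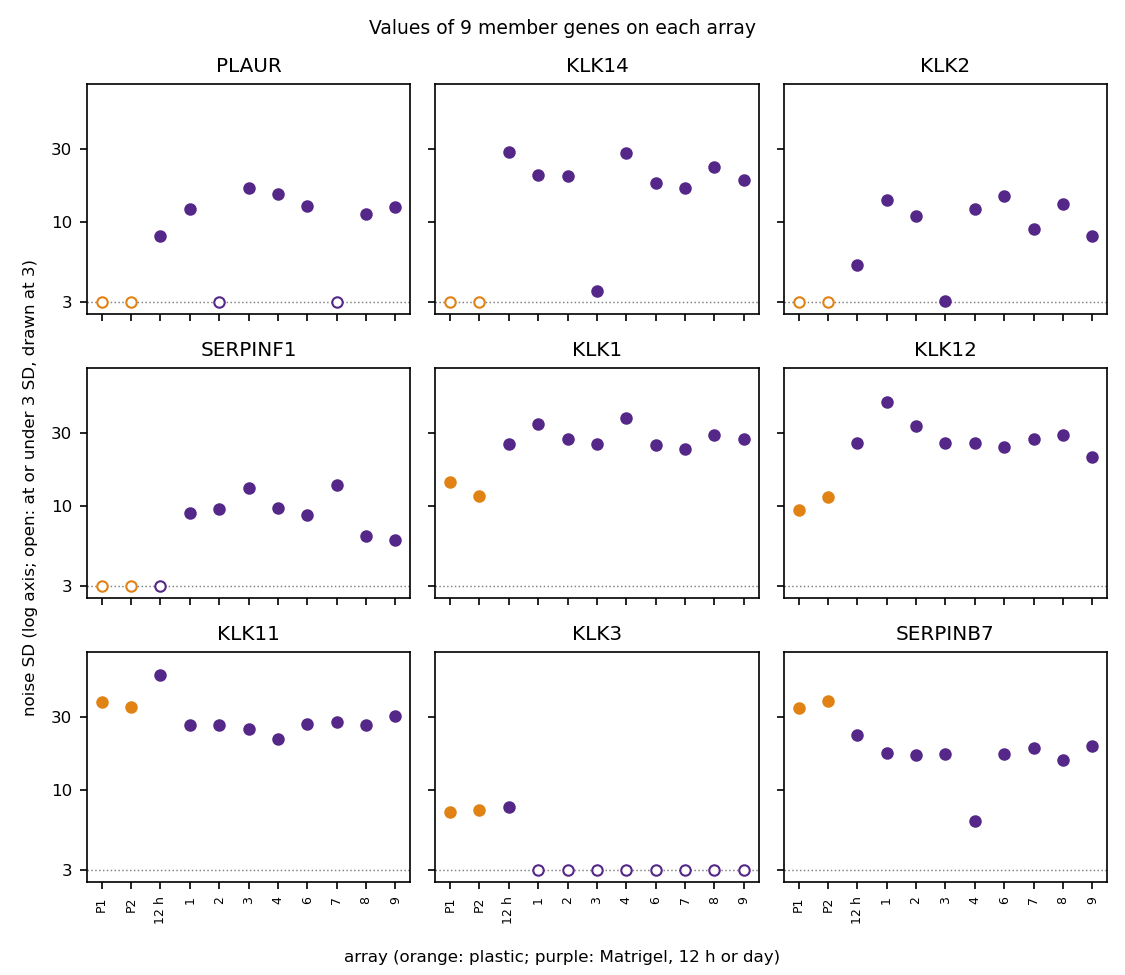
Noise SD (vertical, log axis) of 9 members on each of the 2 plastic arrays (orange) and 9 Matrigel arrays (purple; 12 h or day), with values under 3 SD drawn open at the dotted line at 3. PLAUR is under 3 SD on plastic and on days 2 and 7, KLK14 is low on day 3, SERPINF1 passes 3 SD from day 1, KLK11 is highest at 12 h with 56.9 SD, and KLK3 is above 3 SD on plastic and at 12 h alone.

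The 7 kallikreins that did not pass differed in level of signal. KLK7, a chymotrypsin-like enzyme of skin shedding, was at the lowest value on both plastic arrays and ranged on Matrigel from under 3 SD on days 7, 8 and 9 to 23.9 SD at 12 h. KLK5, its activator in skin, was 4.87 and 7.07 SD on plastic and between 1.51 and 6.94 SD on Matrigel (log2 -0.73 ± 0.29 SE, adjusted p = 0.0608 by limma), and the sign turned to 0.08 with values rebuilt and regressed. Without the day 7 array it passed at -0.85. KLK15 was 3.35 and 7.58 SD on plastic and 1.71 to 5.65 SD on Matrigel. KLK13 was 18.1 and 23.1 SD on plastic and 19.5, 27.0 and 33.0 SD on Matrigel (log2 0.40 ± 0.17 SE, adjusted p = 0.079 by limma), and passed without the day 9 array (0.46, adjusted p = 0.018 by limma). KLK6, neurosin, was 41.1 and 41.3 SD on plastic and 36.7 to 47.1 SD on Matrigel. KLK11 is described with the 12 h array.

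The probes of KLK10 did not give the same answer. The brighter probe was 20.7 and 16.9 SD on plastic and 8.77, 19.6 and 24.2 SD on Matrigel, and the groups overlapped. The second probe was 6.03 and 1.63 SD on plastic and 18.4, 22.7 and 35.0 SD on Matrigel, with no overlap. On the deposited scale it was called at least 5.52-fold higher (log2 2.47 ± 0.29 SE, adjusted p = 4.74e-05 by limma). Its raw intensities on plastic were 29.6 and 4.9, only 0.04 and -0.54 noise SD from the low-peak mode. On Matrigel they were 217 to 532. The brighter probe stood for the gene in the counts. With the mean of both probes KLK10 was called higher.

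Of the 21 serpins tested, 5 were higher, 4 were lower and 12 did not pass, 42.9% called beside 45.2% of all probes. The SERPINB genes that lie together in a run of 10 on chromosome 18 had 7 genes on the array and 6 tested, of which 0 were higher and 3 (SERPINB5, SERPINB7 and SERPINB11) were lower, with 22.4% of all probes lower, and a median log2 change of -0.37 beside 0.06 over all probes. With values rebuilt and regressed SERPINB7 (-0.78) and SERPINB11 (-0.10) were not called. SERPINB5 was too dim there to pass the filter and was not tested. Without the regression SERPINB7 and SERPINB11 were at 0.21 and 0.64, and relative to the shift of all probes at -1.06 and -0.63. Of 58 olfactory and taste receptor genes tested, 2 were higher and 30 were lower on the deposited scale, with a median log2 change of -0.44. A fall of this size was thus not particular to the SERPINB run. In the run of 3 SERPINB genes elsewhere, SERPINB1 was higher and SERPINB9 did not pass. Of the SERPINA genes in a run of 9, 5 were on the array and 4 were tested, and SERPINA6 was the 1 called.

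SERPINB5, maspin, an epithelial serpin known as a tumour suppressor, was dim on every array. It was 4.93 and 4.56 SD on plastic and under 3 SD on all 9 Matrigel arrays, 0.16 SD at most (log2 -0.66 ± 0.04 SE, adjusted p = 2.8e-07 by limma). A whole group at the floor has no spread, and the standard error is small for that reason. The raw intensity was 23.1 and 16.4 on plastic, under the low-peak mode of both arrays, and 29.1 to 66.4 on Matrigel, higher on all 9. Among the 6 members called lower, SERPINB5 and KLK3 had a raw intensity above both plastic arrays on every Matrigel array, as did 13.4% of the 4815 probes called lower. With a floor of 5 SD all arrays of SERPINB5 were set to the floor, so no call was possible.

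**Figure D4:**
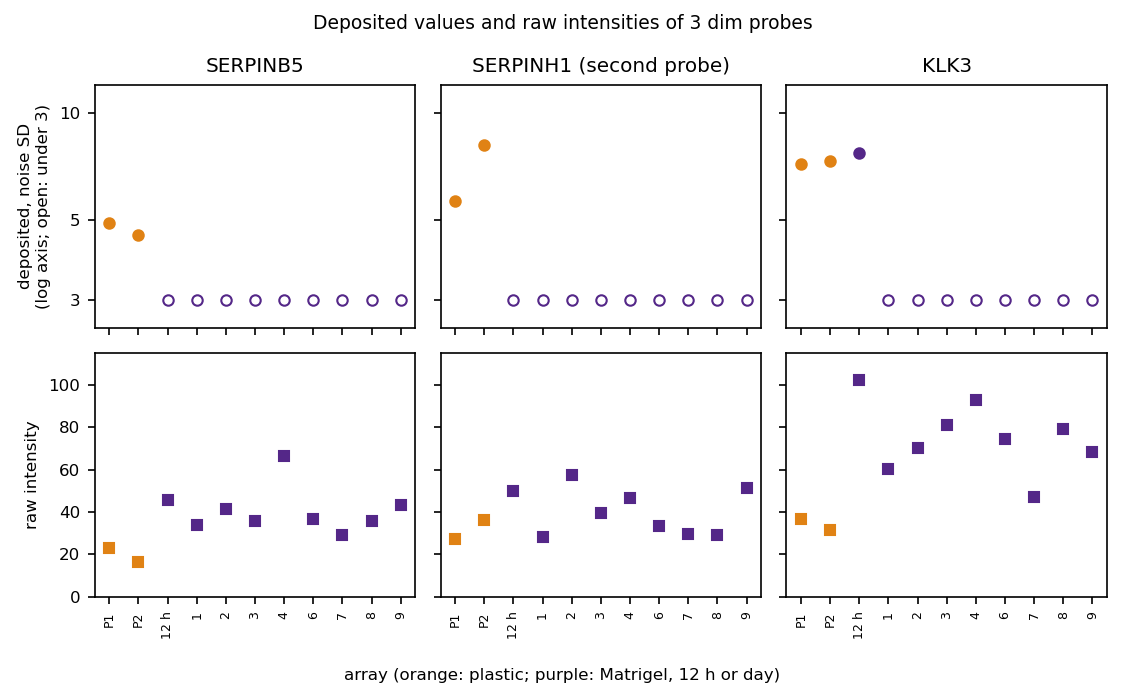
Deposited values in noise SD (top, log axis, open points under 3 SD drawn at 3) and raw intensity (bottom, linear axis) of SERPINB5, the second SERPINH1 probe and KLK3 on 2 plastic arrays (orange) and 9 Matrigel arrays (purple). The deposited values are higher on plastic than on days 1 to 9, while the raw intensities of SERPINB5 and KLK3 are lower on plastic than on every Matrigel array.

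SERPINB7, megsin, was 34.6 and 38.3 SD on plastic and 6.27, 17.2 and 23.0 SD on Matrigel, where day 4 was the lowest array and 12 h the highest. The groups did not overlap and the fall was 2.26-fold (log2 -1.18 ± 0.37 SE, adjusted p = 0.0223 by limma). The adjusted p was 0.11 and 0.17 without plastic replicates 1 and 2. SERPINB11 was 45.9 and 47.5 SD on plastic and 31.5, 35.4 and 41.5 SD on Matrigel (log2 -0.39 ± 0.10 SE, adjusted p = 0.00987 by limma). Its adjusted p was 0.052 and 0.088 without plastic replicates 1 and 2 and 0.092 with quantile normalization. Their neighbour SERPINB12 was 25.1 and 21.0 SD on plastic and 13.7, 18.7 and 20.7 SD on Matrigel, also without overlap, and did not pass (log2 -0.35 ± 0.18 SE, adjusted p = 0.132 by limma). SERPINB10 was 23.7 and 17.6 SD on plastic and 21.7, 25.9 and 35.1 SD on Matrigel, and did not pass. SERPINB13 passed 3 SD on days 4 and 6 alone, at 3.76 and 3.42 SD.

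SERPINB1, which inhibits neutrophil elastase, cathepsin G and proteinase 3 inside cells, rose from 18.3 and 17.8 SD on plastic to 24.1, 36.8 and 46.2 SD on Matrigel. The groups did not overlap (log2 0.95 ± 0.24 SE, adjusted p = 0.00791 by limma). The adjusted p was 0.068 without plastic replicate 1 and 0.085 without plastic replicate 2. SERPINB9, the inhibitor of granzyme B, was 53.6 and 56.7 SD on plastic and 44.4, 51.2 and 60.4 SD on Matrigel, with overlapping groups.

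SERPINH1, the collagen chaperone HSP47, which does not inhibit proteases, was called lower with signal well above noise on all arrays. It was 75.0 and 73.2 SD on plastic and 46.4, 51.8 and 63.3 SD on Matrigel, with no overlap. The fall was 1.40-fold (log2 -0.48 ± 0.09 SE, adjusted p = 0.00147 by limma) and passed without either plastic array, but the change was -0.02 with values rebuilt and regressed, and 0.15 without the regression. The second probe was 5.65 and 8.13 SD on plastic and under 3 SD on all 9 Matrigel arrays, with raw intensities of 27.3 and 36.0 on plastic and 28.0 to 57.3 on Matrigel.

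SERPINF1, pigment epithelium-derived factor, which blocks vessel growth and does not inhibit proteases, appeared on Matrigel after the first array. It was at the lowest value on both plastic arrays, 2.06 SD at 12 h, 9.03 on day 1, 9.49 on day 2, 13.2 on day 3, 9.74 on day 4, 8.74 on day 6, 13.7 on day 7, 6.40 on day 8 and 5.99 on day 9. On the deposited scale it was at least 2.70-fold higher on Matrigel (log2 1.44 ± 0.46 SE, adjusted p = 0.0237 by limma). The log2 change was 0.70 with values rebuilt and regressed. Without the regression it was 0.71, and -0.56 relative to the shift of all probes. The call was lost with values rebuilt from the raw intensities with or without the regression, with quantile normalization and without either plastic array, with adjusted p from 0.065 to 0.24. Its neighbour SERPINF2, the main inhibitor of plasmin, was 15.5 and 15.6 SD on plastic and 15.6, 17.6 and 21.5 SD on Matrigel and did not pass (log2 0.18 ± 0.15 SE, adjusted p = 0.348 by limma).

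The hormone carriers of the family were both higher on Matrigel. SERPINA7, which binds thyroxine in blood, was 14.5 and 19.4 SD on plastic and 25.3, 29.5 and 35.3 SD on Matrigel (log2 0.81 ± 0.14 SE, adjusted p = 0.00073 by limma). SERPINA6, which binds cortisol, was 22.7 and 23.9 SD on plastic and 27.9, 34.7 and 43.6 SD on Matrigel (log2 0.60 ± 0.16 SE, adjusted p = 0.0117 by limma). Neither gene's groups overlapped, and both are known as liver products. Of 7 hepatocyte markers 3 were higher and 1 was lower, with HP at the lowest value on both plastic arrays and 14.6 to 23.0 SD on Matrigel, and ALB at 10.4 and 13.9 SD and 0.64 to 14.1 SD, and their part in these rises was not tested. SERPINI1, neuroserpin, an inhibitor of tissue plasminogen activator, was 20.6 and 15.3 SD on plastic and 21.8, 33.0 and 43.1 SD on Matrigel (log2 0.87 ± 0.20 SE, adjusted p = 0.00424 by limma). Without either plastic array SERPINA7 passed and SERPINA6 did not (adjusted p = 0.10 and 0.078 by limma), and SERPINI1 did not pass without plastic replicate 2 (adjusted p = 0.10 by limma).

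The plasma inhibitors of clotting and complement did not pass. SERPINC1, antithrombin, was 38.3 and 35.6 SD on plastic and 31.2, 37.0 and 42.1 SD on Matrigel. SERPIND1, heparin cofactor II, was 21.7 and 22.2 SD on plastic and 13.7, 31.1 and 37.3 SD on Matrigel, above both plastic arrays on every day but day 6, and passed without that array (log2 0.49, adjusted p = 0.026 by limma). SERPING1, the C1 inhibitor, was 29.8 and 30.6 SD on plastic and 28.1, 33.0 and 35.4 SD on Matrigel. SERPINA5, the protein C inhibitor, was 19.7 and 23.3 SD on plastic and 19.8, 28.8 and 37.9 SD on Matrigel (log2 0.38 ± 0.22 SE, adjusted p = 0.182 by limma). SERPINA3, an inhibitor of cathepsin G, was 27.0 and 31.4 SD on plastic and 18.7, 27.6 and 44.5 SD on Matrigel, and SERPINA10 and SERPINI2 overlapped between the groups as well.

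Over the days on Matrigel no member passed. By limma 0 of 39 members had a trend with log2 of the day at an adjusted p of 0.05 (lowest adjusted p = 0.414), and 3 had an unadjusted p under 0.05, as against 8.47% of all probes. These were PLAU and SERPINB11 upward and KLK3 downward. Over all 21480 probes 1 passed, or 0.00466%.

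The 12 h array differed from the 8 later ones for 3 members by limma at an adjusted p of 0.05, 2 higher and 1 lower. Of all probes 5.94% were called in this comparison, 3.27% higher and 2.67% lower. The lone 12 h array was assumed to vary like the other groups. KLK3 was at least 2.58-fold higher at 12 h on the deposited scale (log2 1.37 ± 0.07 SE). All 8 later arrays were under 3 SD and set to it, so they had no spread and the standard error is small for that reason. The raw intensity of KLK3 at 12 h was 2.33 noise SD over the low-peak mode, under 3. With values rebuilt and regressed its log2 difference was 0.87. KLK11, a trypsin-like kallikrein, was 56.9 SD at 12 h, 21.5 to 30.3 SD on the later days, and 37.5 and 35.0 SD on plastic, a difference of 2.15-fold between 12 h and the later days (log2 1.11 ± 0.15 SE, adjusted p = 0.00196). Its raw intensity was 513 at 12 h and 304 to 506 later. SERPINF1 was lower at 12 h by 1.61 on the log2 scale (log2 -1.61 ± 0.40 SE, adjusted p = 0.0428), and this call was lost under values rebuilt with or without the regression, under quantile normalization and without either plastic array. The 12 h array also had the lowest raw median among the Matrigel arrays, 224 against 250 to 482, and its part in these differences was not tested.

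Genes that act with these families were described from a list of 57 genes, 53 with a probe and 52 tested, of which 16 were higher, 11 were lower and 25 did not pass, with a median log2 change of 0.08. This is 51.9% called, beside 45.2% of all probes. The proteases and their cofactors included ELANE, neutrophil elastase and a target of SERPINB1, which was 5.47 and 5.19 SD on plastic and 21.0, 44.2 and 48.1 SD on Matrigel (log2 2.79 ± 0.31 SE, adjusted p = 2.55e-05 by limma). Its raw intensities of 26.2 and 19.5 on plastic lay under the low-peak mode, and those on Matrigel were 209 to 804. Of 6 leukocyte markers 1 was higher and 1 was lower, CD3E at 5.31 and 5.09 SD on plastic and 26.8 to 37.0 SD on Matrigel, CD68 at 27.0 and 24.1 SD and 14.8 to 22.4 SD, and PTPRC at 32.7 and 34.0 SD and 25.5 to 33.0 SD, and their part in the ELANE result was not tested. PRTN3, another target of SERPINB1, and CTSB, a cysteine protease that can activate pro-urokinase, were also higher, CTSB from 28.4 and 28.6 SD to 51.3, 57.3 and 68.7 SD. VTN, vitronectin, which binds the urokinase receptor, was 11.6 and 5.49 SD on plastic and 20.7, 32.3 and 37.2 SD on Matrigel (log2 1.93 ± 0.26 SE, adjusted p = 0.000132 by limma). LRP1, the receptor that clears protease and serpin complexes, was called higher, at 8.59 and 10.3 SD on plastic and 14.6, 21.3 and 25.0 SD on Matrigel. ELANE, VTN, LRP1 and HGF were under 3 raw noise SD over the mode on both plastic arrays, and CTSB and PRTN3 were not. S100A10, a cell surface receptor of plasminogen, fell from 50.8 and 54.1 SD to 15.6, 22.1 and 29.1 SD (log2 -1.24 ± 0.19 SE, adjusted p = 0.00034 by limma).

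Growth factors on this list were called in both directions. HGF, whose precursor is cut by serine proteases, was 6.56 SD on one plastic array and under 3 SD on the other, and 11.6, 16.5 and 23.4 SD on Matrigel (log2 1.87 ± 0.30 SE, adjusted p = 0.00044 by limma), while its receptor MET was lower (log2 -0.41 ± 0.15 SE, adjusted p = 0.0477). TGFB1, which plasmin can release from its latent form, was 18.7 and 19.9 SD on plastic. Its raw intensities there were only 2.66 and 2.17 noise SD over the low-peak mode. On Matrigel TGFB1 was above 3 SD on 4 of 9 arrays, the highest at 13.8 SD (log2 -1.92 ± 0.67 SE, adjusted p = 0.0368 by limma). The Kunitz inhibitors SPINT1 and SPINT2 were lower at log2 -0.89 and -0.80, with raw intensities above both plastic arrays on all 9 Matrigel arrays. The calls downward on this list fell from 11 to 4 with values rebuilt and regressed and to 0 without the regression.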

How the data were processed

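RNA of RT4 cells on plastic (2 arrays) and Matrigel (9 arrays) was measured after Cy3 labeling on spotted arrays of 22464 oligonucleotides. The authors deposited raw intensity values and a table of log10 values, made by expressing values in SDs of the noise around the zero point, taking log10 and fitting the arrays onto a common scale with a robust regression. That log10 table was the basis of the tests. On each array 97.1% to 98.9% of them lay within 0.02 of a straight line on log10 of raw intensity minus a zero point, with slopes of 0.686 and 0.701 on plastic and 0.915 to 1.29 on Matrigel and zero points of 1.58 and 3.69 against 28.1 to 62.1. Values at or under the zero point carry 1 constant per array, the lowest value of the table.

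A single symbol was given for 17043 probes, several for 172 and none for 5249, and 16952 matched GRCh38.p14 by gene identifier. The probe with the highest mean stood for a gene. Probes above 3 SD on at least 2 arrays were fitted with limma 3.58.1 in R 4.3.3 (lmFit, eBayes with trend) after a floor of 3 SD and a log2 transform, and p-values were adjusted by Benjamini-Hochberg over 21480 probes. The fit was tested on simulated data. Counts used Python 3.11.15 with pandas 2.3.3.

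Named were a fixed set of members, members called with a log2 change of at least 1, those called at 12 h or off on plastic and on on Matrigel, and the 3 steadiest above 5 SD on all arrays. Other members and listed genes were named after their values were seen. The members and lists were chosen with earlier results of these data known. Alternatives were values rebuilt from raw intensities with and without the regression, quantile normalization, floors of 1 and 5 SD, other filters, array weights, no trend, the mean of a gene's probes, and leaving out each array. The zero point of the deposited values without the regression, and leaving out the 12 h and day 7 arrays together, were added after seeing the data.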

Additional observations from a re-analysis of the deposited data

Results flagged for a closer look

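In 10 of 38 groups of 9 Matrigel arrays, 1 array stood apart by Dixon's gap over range at the 95% level, where chance gives about 1.9. Over all probes that varied on Matrigel the same held for 22.1% of 20318, so nothing particular to these genes is read from the count. The arrays concerned were spread over 12 h and days 1, 3, 4, 6, 7 and 9. At 12 h KLK3 was highest (gap over range 1, since all later arrays were at the floor), KLK11 was highest (0.646, at 56.9 SD beside 30.3 SD for the next array) and KLK8 was lowest (0.4997, at 29.5 SD beside 36.3 SD).

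On day 3 KLK14 was lowest (0.739, at 3.53 SD beside 16.7 SD, raw intensity 142) and so was PLG (0.581, at 12.5 SD beside 24.8 SD). SERPINB7 was lowest on day 4 (0.711, at 6.27 SD beside 15.8 SD, raw intensity 194). KLK10 was lowest on day 9 (0.603, at 8.77 SD beside 16.2 SD), SERPIND1 on day 6 (0.495, at 13.7 SD beside 22.5 SD) and KLK4 on day 1 (0.4997, at 32.8 SD beside 38.7 SD). KLK5 was highest on day 7 (0.534, at 6.94 SD beside 4.43 SD).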

How the results depend on the processing

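Of 747 values over 34 gene results, 649 kept their direction and their side of the threshold, 49 lost it, 30 gained it and 19 turned. Of the 19, 14 arose without the regression, where the shift of all probes alone can turn a small fall. Relative to that shift 12 of the 14 stayed below the median probe, the others being SERPINB12. Of the members called higher, KLK2 and SERPINF1 also lay below the median probe without the regression, and the rest lay above it. With rebuilt values and with the zero point of the deposited values, KLK2 was at -0.48 and -0.38 and SERPINF1 at -0.56 and -0.45. No paired analysis was possible because the Matrigel arrays carry no replicate number. Values rebuilt without the regression, where the median of all probes shifted by 1.27, gave 27 members higher and 0 lower, and 39 pathway genes higher and 0 lower. The zero point of the deposited values without the regression, with a shift of 1.18, gave 27, 0, 39 and 0 likewise. Over all probes these settings called 15896 and 15349 higher and 55 and 62 lower. Under these settings the log2 changes turned to 0.96 and 0.85 for KLK11, 0.58 and 0.51 for KLK4, 0.64 and 0.56 for SERPINB11, 1.27 and 1.19 for SERPINB12, 0.21 and 0.10 for SERPINB7, 0.74 and 0.67 for SERPINB9, and 0.15 and 0.11 for SERPINH1. Values rebuilt with the regression gave 0 members and 4 pathway genes lower, and 0 off on plastic and on on Matrigel, with KLK15 at 0.10, KLK5 at 0.084 and SERPINB9 at 0.16. KLK15 ranged from -1.14 to 0.036 with 1 array left out, the last without plastic replicate 2. Quantile normalization gave 3 members lower and SERPINF2 at -0.12. Called higher under the deposited values, both rebuilt values and quantile normalization were KLK1, KLK8, KLK12, KLK14, SERPINA6, SERPINA7, SERPINB1 and SERPINI1. Pathway genes lower numbered 6 with probes above 3 SD on all 11 arrays and 7 with array weights. The filter for 3 SD on all 11 arrays left 1 member at 12 h, since KLK3 and SERPINF1 were not tested under it. Requiring every array past its threshold left 0 off on plastic and on on Matrigel. The cause of these differences was not tested.

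Leaving out single arrays gave 4 to 11 members higher, 2 to 7 lower, 0 with a trend, 2 to 4 at 12 h, 1 to 2 off on plastic and on on Matrigel, 0 the other way, and 10 to 17 pathway genes higher and 4 to 11 lower. Without plastic replicate 1 there were 5 members higher (KLK1, KLK8, KLK12, SERPINA7 and SERPINI1) and 3 lower (KLK4, SERPINB5 and SERPINH1). Without plastic replicate 2 there were 4 higher (KLK1, KLK12, SERPINA7 and PLAU) and 2 lower (SERPINB5 and SERPINH1). The lone plastic array was then assumed to vary like the Matrigel arrays. Without the 12 h and day 7 arrays PLAU and PLAUR were added to the members higher, and KLK5, KLK11 and KLK15 to those lower. On plastic a raw intensity of 9.64 or 13.3 already counted as 3 SD, so signal over background limits what the dim members can show.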
